A study of Arabidopsis thaliana with 4 samples.

Results

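The 50 plates TB50 to TB99 of an Arabidopsis thaliana tiling array are described here, in a profile of histone H3 trimethylated at lysine 36 (H3K36me3). The members were all tiles of plate set TB with a plate number from 50 to 99 and a value in all 4 array columns. They numbered 4781 of the 21685 tiles measured (22.0%), and 19 of their 4800 wells had no value. The material was seedlings of the ecotype col-0, labelled as 10 day old and untreated, grown in liquid 0.5X MS medium at 22 °C with a photoperiod of 16 h. Chromatin immunoprecipitation (ChIP) used the antibody Abcam_ab9050, and the ChIP DNA shared each array with its input DNA, one in Cy5 and the other in Cy3. The labels number 2 pairs of ChIP and input extracts, called replicates 1 and 2 below, with 2 arrays per pair that exchange the dyes. Whole seedlings hold many cell types, so a mark in few cells and a weak mark in many cells cannot be told apart.

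In plants H3K36me3 is known as a mark of the bodies of transcribed genes. It is placed on nucleosomes by SET-domain methyltransferases, of which SDG8 is the main one in Arabidopsis, and this is coupled to elongating RNA polymerase. Along a chromosome, genes that carry the mark alternate with silent genes and intergenic DNA that do not.

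Each value is a log ratio of the ChIP and input channels as the authors deposited it. The sources used here give neither the base of the logarithm nor which channel is the numerator. High and low therefore describe the deposited number, and would change places for the mark if input were the numerator. Both arrays of each of the 2 dye-swap pairs held identical values, so each pair counted as 1 replicate (n = 2). Each replicate was centred on its median over all tiles, which was -1.22 in replicate 1 and -1.10 in replicate 2 as deposited. All values below are in deposited log units relative to that median, and 0 is the array median and not an absence of the mark. No table used here pairs the tiles with genes, positions or sequences, so tiles are named by plate, row (A to H) and column (1 to 12), and distances are counted in tiles. Consecutive or neighbouring tiles are those that follow each other in this order. Whether they adjoin on a chromosome is not known here. The labels do not say whether the 2 extract pairs were grown as separate cultures. The p-values therefore cover only the spread between these 2 pairs, which may be technical. In the limma test of single tiles that spread comes mostly from all tiles pooled and little from the tile tested. It has 1 residual and 23.1 prior degrees of freedom.

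The tiles of TB50 to TB99 spread over a wide range with many high ratios. In replicate 1 they ran from -1.66 to 3.98 with a median of 0.63, and in replicate 2 from -1.62 to 3.46 with a median of 0.48. The middle 50% of the tiles lay between -0.14 and 1.82 in replicate 1 and between -0.18 and 1.69 in replicate 2. The replicate means of all tiles were described by 2 overlapping normal distributions, which divided the tiles into high tiles (posterior above 0.99), low tiles and tiles between. High tiles began at 0.98 and low tiles ended at 0.46. In TB50 to TB99, 1964 tiles (41.1%) were high, 510 (10.7%) lay between and 2307 (48.3%) were low. Over the whole array 28.3% of tiles were high and 63.8% low. With 3 components, the uppermost alone held 22.9% of the tiles of TB50 to TB99 and 15.6% of all tiles. The high tiles of TB50 to TB99 averaged 2.01 in replicate 1 and 1.87 in replicate 2, with an SD over tiles of 0.55 for the replicate mean. Their low tiles averaged -0.15 in replicate 1 and -0.20 in replicate 2.

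A mixture fitted to these 4781 tiles alone put 53.5% of the weight on an upper component centred at 1.62 (SD 0.77) and 46.5% on a lower one centred at -0.17 (SD 0.34). In the fit to all tiles, the upper component held 38.1% of the weight and was centred at 1.58, and the lower one was centred at -0.31. The 2 fits set the boundary of high tiles between the same 2 tiles of the block, so the same 1964 tiles were high under both.

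**Figure D1:**
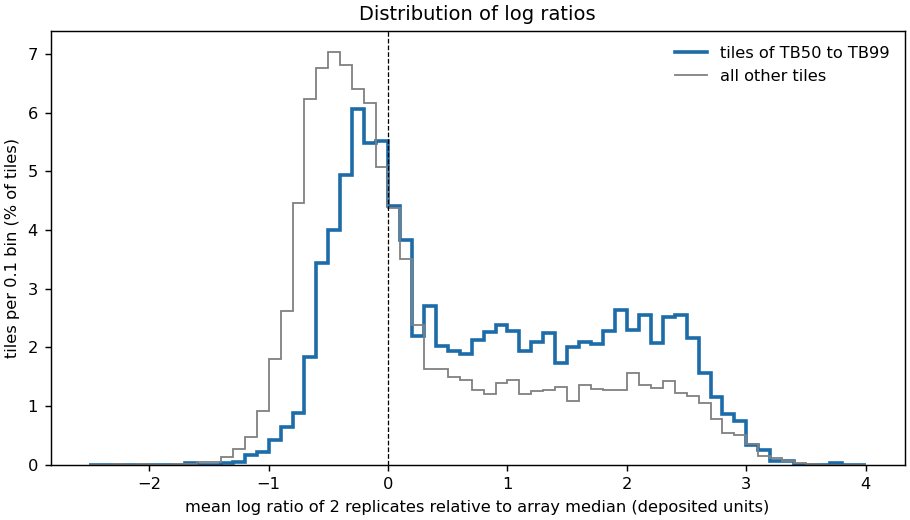
Share of tiles in bins of 0.1 of the mean log ratio of 2 replicates relative to the array median (x axis, deposited units), for the 4781 tiles of TB50 to TB99 (blue) and all 16904 other tiles (grey). The low peak of TB50 to TB99 lies to the right of that of the other tiles, and more of its tiles lie above 0.98, where high tiles begin.

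Tested one by one against the array median, most tiles of TB50 to TB99 that passed were above it. Of the 4781 tiles, 2656 (55.6%) were above the median and 766 (16.0%) below (limma, 2 replicates, Benjamini-Hochberg adjusted over all tiles, threshold 0.05). Over all 21685 tiles, 38.9% were called above and 32.3% below. The remaining 1359 tiles of the block (28.4%) did not pass. Of the tiles called above, 2655 had a positive value in both replicates, and all 766 tiles called below were negative in both. The median of the replicate mean was 1.62 among the tiles called above and -0.49 among those called below. The split depends on the centring, since against 0 as deposited 1466 tiles were above and 2670 below. With a minimum size of 0.5 (treat) 2146 tiles of the block were above and 68 below. Shares over all tiles without centring or with the minimum size are not given here. These counts are therefore not set against the array.

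The block as a whole had a higher ratio than the rest of the array in both replicates. It averaged 0.84 in replicate 1 and 0.74 in replicate 2, against 0.31 and 0.29 over all other tiles. The difference was 0.49 ± 0.06 (SD, n = 2), with 0.53 in replicate 1 and 0.45 in replicate 2. Against the preceding plates TB00 to TB49, whose means were 0.58 and 0.49, the difference was 0.25 ± 0.01 (SD, n = 2). Against TA52 to TA99, whose means were 0.34 and 0.29, it was 0.48 ± 0.04 (SD, n = 2). Against the following plates TC00 to TC13, whose means were 0.81 and 0.67, it was 0.05 ± 0.03 (SD, n = 2). The exact sign permutation test over the 2 replicates (two-sided) gave p = 0.5 for each of these 4 differences, the smallest value it can give, so this design cannot reach a threshold of 0.05.

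The blocks differed in how many tiles were high more than in how high those tiles were. High tiles averaged 2.01 in replicate 1 and 1.87 in replicate 2 in TB50 to TB99, against 2.04 and 1.85 over all other tiles. The difference was -0.03 in replicate 1 and 0.02 in replicate 2, so its sign was not shared. The share of high tiles was 41.1% in TB50 to TB99, against 32.5% in TB00 to TB49, 22.9% in TA52 to TA99, 39.7% in TC00 to TC13 and 24.7% over all other tiles. The low tiles of the block also lay nearer to the array median than those elsewhere, at -0.15 in replicate 1 and -0.20 in replicate 2, against -0.37 and -0.31 over all other tiles. The same was seen against TB00 to TB49, with a difference of 0.09 in replicate 1 and 0.07 in replicate 2. High and low were set from the same values, so these class means are a description.

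Plates differed in their share of high tiles. It ran from 21.9% to 63.5% with a median of 39.1%, and it exceeded 50% on 10 of the 50 plates. It did so on 4 of 50 plates in TB00 to TB49, 2 of 48 in TA52 to TA99 and 6 of 14 in TC00 to TC13. The largest share in TC00 to TC13 was 67.7%. No plate of the block lay under 20%, against 9 of 50 plates in TB00 to TB49, 22 of 48 in TA52 to TA99 and 3 of 14 in TC00 to TC13. The highest share of the block was on TB80, where 61 of 96 tiles were high and the tiles averaged 1.37 in replicate 1 and 1.30 in replicate 2. TB73 followed with 60 of 96 high tiles and means of 1.44 and 1.31, the highest plate mean of the block in both replicates. TB53 held 57 of 96 high tiles, with means of 1.24 and 1.15, and TB54 beside it held as many. The lowest share was on TB91, with 21 of 96 high tiles and means of 0.39 and 0.25. TB64 had 22 of 96 high tiles and means of 0.37 and 0.41. TB66 had 24 of 90 high tiles and means of 0.44 and 0.52. Each of TB91, TB64 and TB66 lay below the share of 28.3% over the whole array. The gap between TB80, TB73 and TB53 on one hand and TB91, TB64 and TB66 on the other was wider than the gap between replicates on any of the 6.

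**Figure D2:**
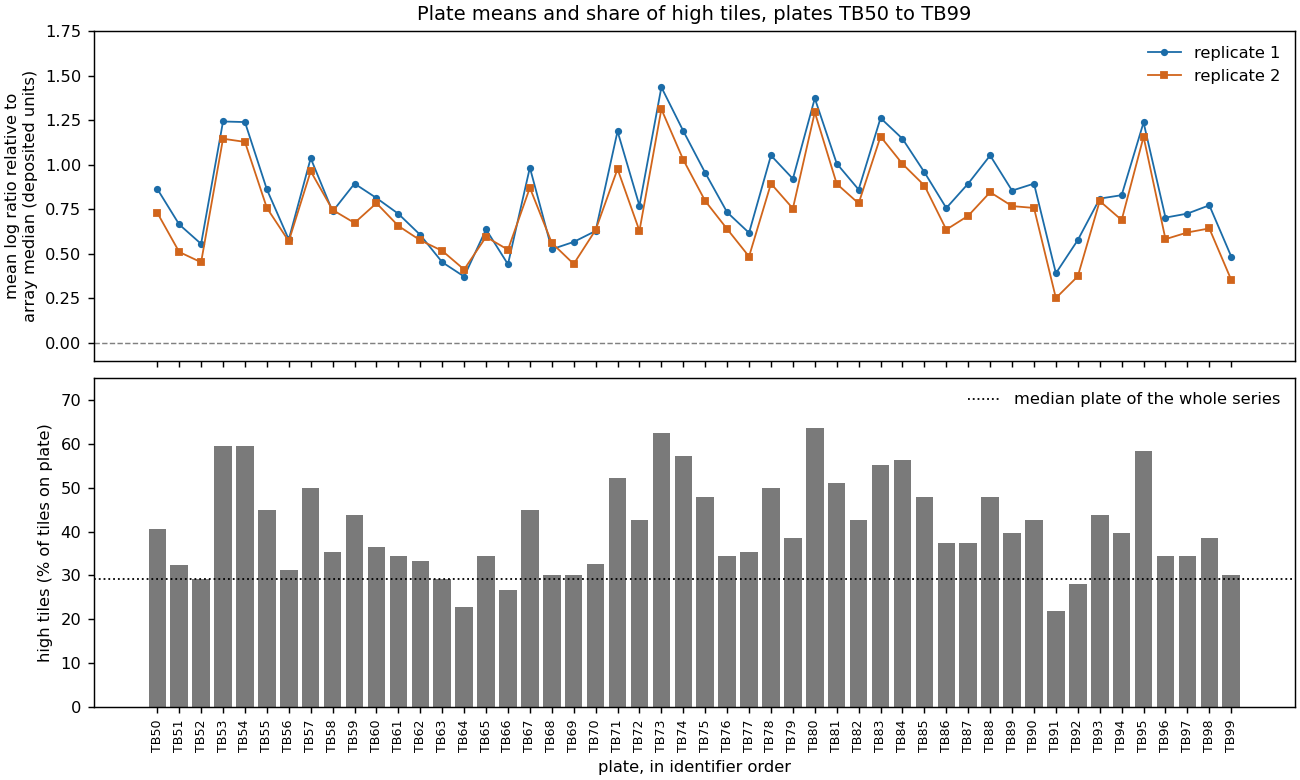
Upper panel, mean log ratio per plate relative to the array median (y axis, deposited units) in replicate 1 (blue circles) and replicate 2 (orange squares) for plates TB50 to TB99 in identifier order. Lower panel, share of high tiles per plate (bars), with the median plate of the whole series, 29.2%, as a dotted line. Both replicates are high at TB53 to TB54, TB73, TB80, TB83 and TB95, and all plate means lie above 0.

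Along the plate order the block was lowest in its second 10 plates. High tiles made up 42.6% of TB50 to TB59, 32.3% of TB60 to TB69, 45.4% of TB70 to TB79, 47.9% of TB80 to TB89 and 37.2% of TB90 to TB99. The mean of TB60 to TB69 was 0.61 in replicate 1 and 0.59 in replicate 2, and that of TB80 to TB89 was 1.02 and 0.90. At the borders of the block the plates just inside and just outside were alike in share. TB50 held 40.6% high tiles and the plate before it, TB49, held 43.8%. TB99 held 30.2% and TC00 after it held 34.4%. Plate membership accounted for 5.30% of the variance of the replicate mean within the block, against 10.1% in TB00 to TB49, 12.99% in TA52 to TA99, 13.5% in TC00 to TC13 and 21.6% over the whole array.

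High tiles stood in short runs. In plate, row and column order the 1964 high tiles formed 540 runs of consecutive tiles, with a mean length of 3.64 tiles and a median of 3. There were 98 runs of 1 tile, 133 of 2 and 111 of 3, so 63.3% of the runs held 1 to 3 tiles. Single tiles made up 4.99% of the high tiles, and 81.5% stood in runs of 3 or more. A smaller number of runs was long: 28 held 10 tiles or more, started on 22 different plates and together held 17.5% of the high tiles. The stretches between runs were short as well. Of 537 such stretches, 229 (42.6%) held 1 or 2 tiles and the median was 3, while 17 held 20 tiles or more. Joining runs that were 1 tile apart gave 410 runs with a mean length of 5.11 tiles, the longest of 36. Missing wells on TB61, TB66, TB70 and TB81 end runs and stretches there. The number of tiles per gene is not known here.

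The block had more runs per tile than most of the array, with runs of similar length. It held 113 runs per 1000 tiles, against 90.4 in TB00 to TB49, 72.6 in TA52 to TA99 and 72.1 over all other tiles, while TC00 to TC13 held 110.0. The mean run length was 3.64 tiles in TB50 to TB99, against 3.59 in TB00 to TB49, 3.15 in TA52 to TA99, 3.61 in TC00 to TC13 and 3.42 over all other tiles. The longest stretch without a high tile was 36 tiles in TB50 to TB99, against 71 in TB00 to TB49, 149 in TA52 to TA99 and 42 in TC00 to TC13. These counts have no replicate test.

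The longest run of high tiles lay on TB84, from row F column 5 to row G column 12, and held 20 tiles. Its values ran from 1.18 to 2.65 with a median of 1.95 in replicate 1, and from 0.74 to 2.54 with a median of 1.79 in replicate 2. All 20 tiles were called above the array median by limma. This follows from their choice as high tiles, since the smallest replicate mean called above in the block was 0.31. The tile before the run had 0.53 in replicate 1 and 0.27 in replicate 2, and the tile after it had 1.27 and 0.63. From row F column 10 to row G column 4 the replicate mean lay between 1.06 and 1.95. On either side it reached 2.54 at row F column 9 and 2.51 at row G column 8, with single lower tiles of 1.46 at row F column 7 and 1.32 at row G column 7. After 2 tiles that were not high, another 7 high tiles followed, with a peak at row H column 5 of 3.24 in replicate 1 and 3.02 in replicate 2.

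The next longest run held 19 tiles, from row G column 7 of TB95 to row A column 1 of TB96. Its values ran from 0.90 to 2.77 with a median of 2.19 in replicate 1, and from 1.07 to 2.63 with a median of 2.22 in replicate 2. Its mean was 2.11 in replicate 1 and 2.10 in replicate 2. The run crossed from the last well of one plate to the first of the next without a break. The third run in length held 17 tiles on TB74, from row G column 8 to row H column 12, with a mean of 1.99 in replicate 1 and 1.77 in replicate 2. Among the 28 runs of 10 tiles or more, run means lay between 1.64 and 2.52 with a median of 2.05.

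The 3 longest stretches without a high tile were low almost throughout. One held 36 tiles, from row G column 3 of TB85 to row B column 2 of TB86, and averaged -0.26 in replicate 1 and -0.16 in replicate 2. In it 35 of 36 tiles were low, and limma called 13 below and 1 above the array median. The tile before it had 3.14 in replicate 1 and 2.84 in replicate 2, and the tile after it had 1.74 and 1.83. That later tile was a run of 1, and the next run began only at row C column 9 of TB86. Another 36 tiles, from row G column 7 of TB91 to row B column 6 of TB92, averaged -0.37 in replicate 1 and -0.51 in replicate 2. All 36 were low, and 22 were called below the array median. The tile before them had 2.53 in replicate 1 and 2.55 in replicate 2, and the tile after them had 2.36 and 2.01. A stretch of 31 tiles on TB94, from row A column 3 to row C column 9, averaged -0.25 in replicate 1 and -0.31 in replicate 2. In it 29 of 31 tiles were low, and limma called 15 below and 4 above the array median. The tile before it had 1.18 in replicate 1 and 0.82 in replicate 2, the first tile within it had 1.12 and 0.83, and the tile after it had 1.56 and 1.24. It contained the lowest tile of the block.

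**Figure D3:**
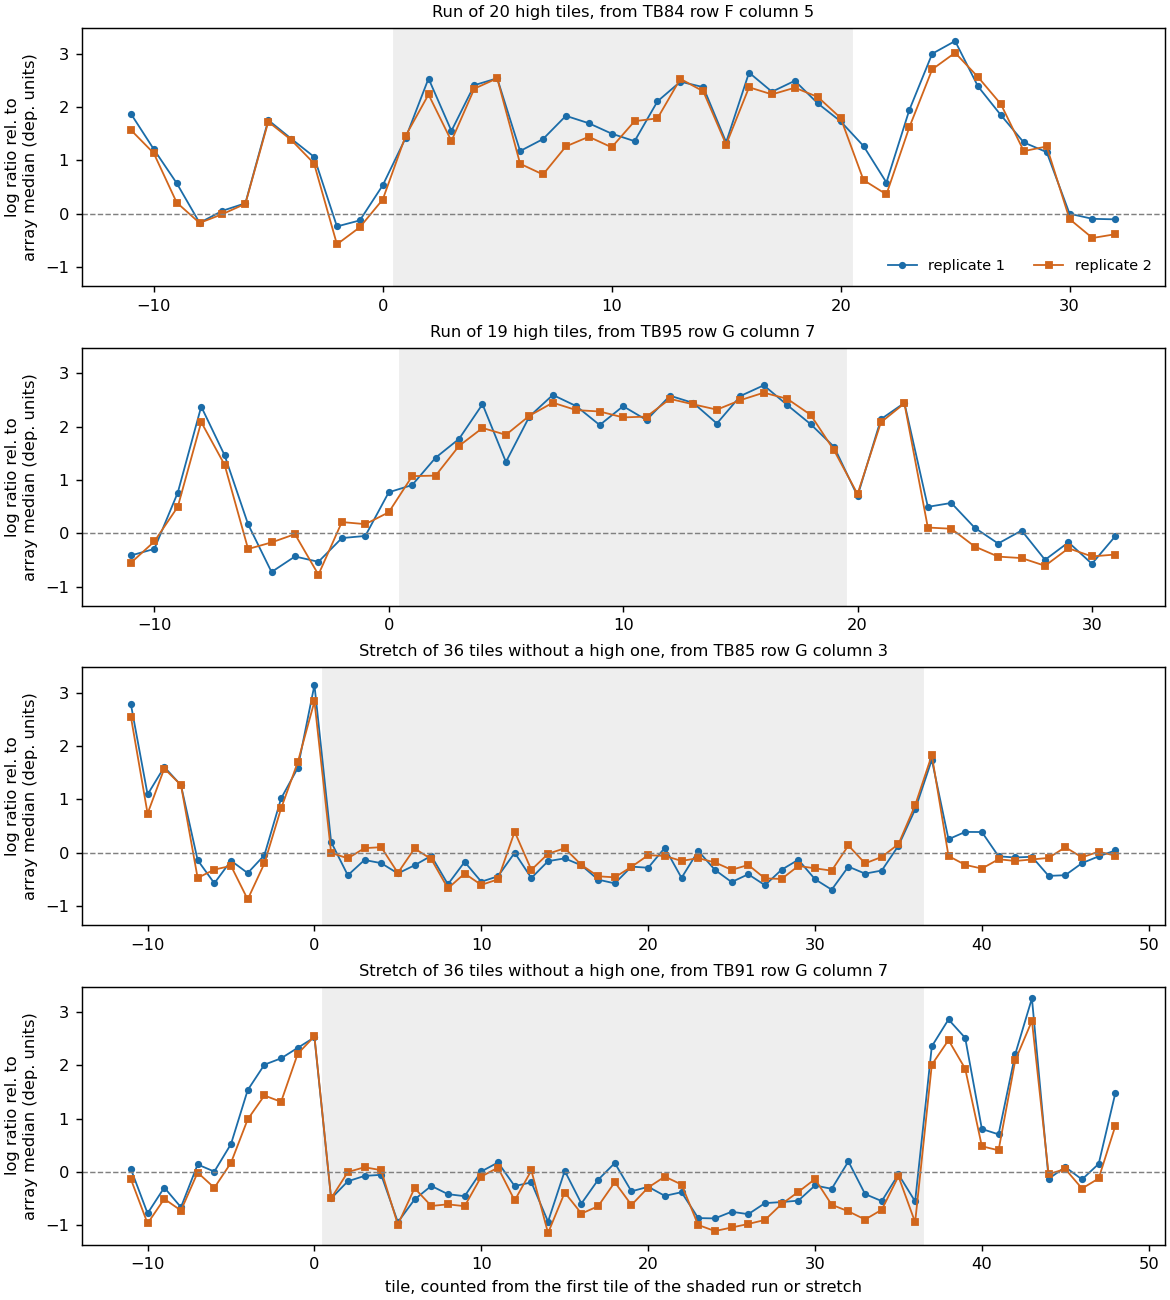
Log ratio relative to the array median (y axis, deposited units) of each tile in replicate 1 (blue circles) and replicate 2 (orange squares), in identifier order, through the runs of 20 and 19 high tiles and the 2 stretches of 36 tiles without a high one, each shaded, with 12 tiles on either side. Both replicates trace the same crests and borders, and the stretches of 36 lie between tiles of 1.74 or more. The tile that ends the stretch from TB85 is a single high tile.

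The highest tile of the block, TB53E01, was also the highest of the array. It had 3.98 in replicate 1 and 3.46 in replicate 2 (mean 3.72, limma standard error 0.15, adjusted p = 5.91e-15). Its run climbed through the 3 tiles before it, with replicate means of 1.57, 1.99 and 2.36, and ended 1 tile after it, at 2.55. The tile after that had 0.03 in replicate 1 and 0.24 in replicate 2. TB73D05 came next, with 3.61 in replicate 1 and 3.09 in replicate 2 (mean 3.35, limma standard error 0.15, adjusted p = 5.91e-15). Here the run began 1 tile earlier, at 2.14, after a tile at 0.33, and went on with 2.33, 1.81 and 1.83. Both tiles thus lay within 2 tiles of a border of their run, one near its end and the other near its start.

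The lowest tile was TB94B09, with -1.66 in replicate 1 and -1.62 in replicate 2 (mean -1.64, limma standard error 0.14, adjusted p = 8.07e-11). The tile after it was low too, at -1.14 in replicate 1 and -0.95 in replicate 2, whereas 2 tiles before it the replicate mean was 0.92. TB78H10 had -1.39 in both replicates (limma standard error 0.14, adjusted p = 1.75e-09). It lay 3 tiles after a high tile at 1.82 and was followed by a tile at -1.05 in replicate 1 and -1.03 in replicate 2. Each of the 2 lowest tiles thus had another tile near -1 after it. Over all tiles of the array, 5 were lower than TB94B09 and 25 were lower than TB78H10.

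High tiles with a low tile on both sides were rare and less high. There were 22 of them, with a mean of 1.65 in replicate 1 and 1.42 in replicate 2. The highest, at row A column 4 of TB60, had 2.46 in replicate 1 and 2.24 in replicate 2 between neighbours whose replicate means were 0.32 and 0.11. The next, at row A column 6 of TB51, had 2.36 in replicate 1 and 1.83 in replicate 2 between neighbours at -0.26 and 0.46.

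Runs set in one replicate were read in the other, which had no part in choosing them. The replicates correlated with r = 0.972 across the tiles of the block, so high values in the other replicate follow largely from the choice. The reading is a description and not an independent check. When runs were set in replicate 1, all of their tiles lay above 0 in replicate 2, and the same held with the replicates exchanged. Runs of 1 tile set in replicate 1 averaged 1.50 ± 0.55 in replicate 2 (SD over 113 runs), runs of 2 averaged 1.80 ± 0.39 (144 runs), runs of 3 to 5 averaged 1.88 ± 0.29 (211 runs), runs of 6 to 9 averaged 1.96 ± 0.21 (60 runs) and runs of 10 or more averaged 2.01 ± 0.19 (24 runs). Run means thus went up with run length. In runs of 6 tiles or more the first and last tiles averaged lower than those inside, as given below. Such end tiles make up more of a short run. Run means without them were not computed, so whether length itself mattered was not tested. The maximum of a run averaged 2.09 in runs of 2 and 2.73 in runs of 10 or more. A longer run holds more tiles from which to take a maximum. With runs set in replicate 2 and read in replicate 1, the run means went up with length in the same order, with 1.79 ± 0.52 in runs of 1 tile (SD over 101 runs) and 2.13 ± 0.20 in runs of 10 or more (15 runs). There, runs of 6 to 9 were nearly alike to those of 10 or more, with a mean of 2.12. The maxima of these 2 groups averaged 2.84 and 2.83. Of the single tiles set in replicate 1, 76.1% were high in replicate 2, against 93.8% of the tiles in runs of 10 or more.

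Values at the borders of runs were read in the same way. A border was placed where the choosing replicate crossed the limit of high tiles, so a step there follows from that choice. The width of the change was not tested. In runs of 6 tiles or more set in replicate 1 (84 runs), the first tile averaged 1.62 in replicate 2, the second 2.03 and the third 2.04. The tile just before the run averaged 0.40. At the far end, counted inward, the last tile averaged 1.76, the next 2.12 and the third 2.14. The tile just after the run averaged 0.37 (82 runs). The SD over runs behind these means was 0.48 to 0.58, and the difference between start and end was not tested. Farther out, the tiles did not stay low: 4 tiles before the start the mean was 1.05 and 4 tiles after the end it was 0.91. The SD over runs was wider there, at 1.07 and 1.10, and the whole block averaged 0.74 in replicate 2.

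Tiles outside runs were lower the farther they lay from a high tile. With high tiles set in replicate 1, tiles next to one averaged 0.33 ± 0.52 in replicate 2 (SD over 937 tiles), and those 2 tiles away averaged -0.11 ± 0.44 (566 tiles). At 6 to 9 tiles they averaged -0.23 ± 0.38 (384 tiles), and at 10 tiles or more -0.30 ± 0.40 (144 tiles). With the replicates exchanged the means were 0.50, 0.04, -0.20 and -0.25 at the same distances. The step from 1 tile to 2 tiles was the largest of the decline in both directions. Of the 507 tiles between the classes with both neighbours measured, 396 (78.1%) had a high neighbour and 218 had a high tile on one side and a low tile on the other. Of low tiles, 23.0% had a high neighbour.

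**Figure D4:**
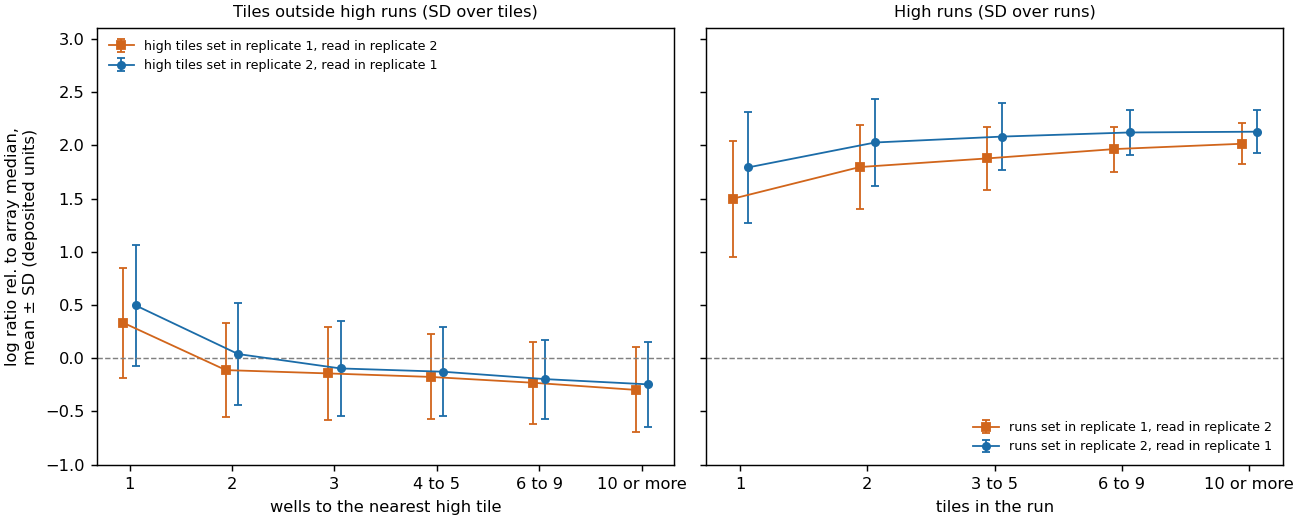
Left, log ratio relative to the array median (y axis, deposited units, mean ± SD over tiles) of tiles outside high runs by the number of wells to the nearest high tile, right, mean of runs (± SD over runs) by run length. High tiles were set in one replicate and values read in the other (orange squares, read in replicate 2, blue circles, read in replicate 1). Values outside runs fall below 0 by 3 wells, and run means go up from 1.50 to 2.01 in replicate 2 and from 1.79 to 2.13 in replicate 1.

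The likeness of neighbouring tiles reached over few tiles. Over 4761 pairs of consecutive tiles, the replicate means correlated with r = 0.665, with 0.657 in replicate 1 and 0.660 in replicate 2. The correlation was 0.369 at 2 tiles apart, 0.228 at 3, 0.119 at 5, 0.048 at 12 and -0.021 at 96. In TB00 to TB49 it was 0.698 for consecutive tiles and 0.221 at 5 tiles, and over the whole array 0.731 and 0.298. Plate membership accounted for 5.30% of the variance in TB50 to TB99, 10.1% in TB00 to TB49 and 21.6% over the whole array. Plate means were taken off for TB50 to TB99 alone. Whether the reach within plates differed between these sets was therefore not tested. Consecutive tiles correlated with r = 0.670 within a plate row (4364 pairs) and 0.640 from the end of a row to the start of the next (349 pairs). From the end of a plate to the start of the next it was 0.395, over 48 pairs only. After a high tile the next tile was high in 73.0% of cases, after a tile between the classes in 49.7% and after a low tile in 12.1%. The replicate difference also correlated along the order, with r = 0.237 for consecutive tiles, 0.173 at 2 tiles apart, 0.020 at 12 and 0.090 at 24. Deviations between the replicates were thus partly shared by neighbouring tiles. All these correlations are across tiles, which share arrays and may share probe neighbourhoods, and they are given as a description.

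**Figure D5:**
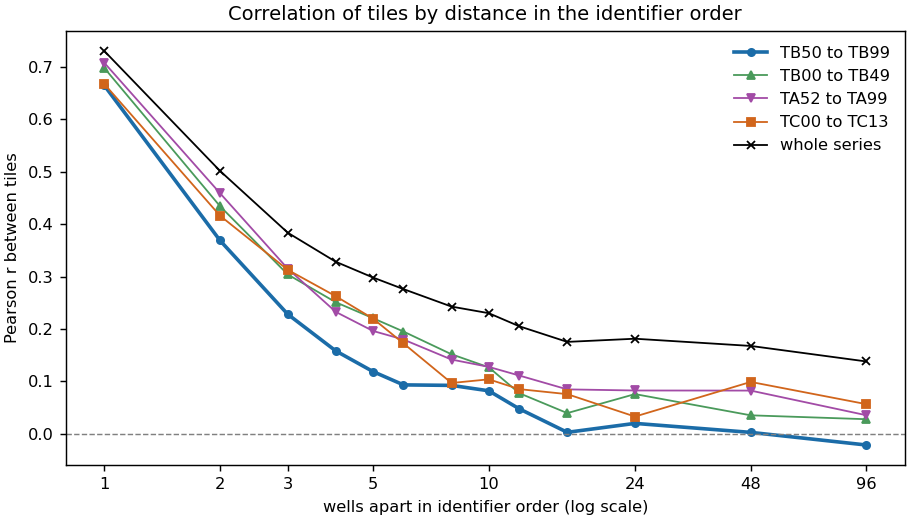
Pearson r between the replicate means of tiles (y axis) by the number of wells between them in identifier order (x axis, log scale), for TB50 to TB99 (thick blue), 3 other blocks and the whole series. TB50 to TB99 has the lowest curve at each distance plotted, and it is near 0 from 16 wells on. Differences between plates, which were unlike in these sets, were not taken off.

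Steps between consecutive tiles were measured alike by both replicates. The size of the step had a median of 0.44 and a 95th percentile of 1.89, and the steps of the 2 replicates correlated with r = 0.937 over 4761 pairs. At 164 pairs the ratio changed by more than 2 in the same direction in both replicates. The largest step was 3.78. High tiles passed directly to a low tile 296 times and to a tile between the classes 230 times.

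The replicates gave nearly the same profile of the block. Across its tiles, which are not independent, Pearson r was 0.972 and Spearman rho 0.960. The replicate difference had an SD of 0.260, against 0.306 over all other tiles, and exceeded 1 in size at 6 tiles. The largest difference was at row E column 1 of TB58, with 2.50 in replicate 1 and 1.38 in replicate 2, followed by row B column 1 of TB70, with 2.62 and 1.52. Both tiles stood between high tiles and were high in the replicate mean. With the mixture fitted to each replicate alone, 1886 tiles of the block were high in replicate 1 and 1804 in replicate 2. The 1726 shared tiles were 91.5% of the list of replicate 1 and 95.7% of that of replicate 2. Of all 4781 tiles, 11 were high in one replicate and low in the other.

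Replicate 1 was slightly higher than replicate 2 over most of the block. Its plate mean was higher on 44 of 50 plates, with a median difference of 0.11. The difference ran from -0.08 on TB66 to 0.22 on TB59. TB66, TB63, TB64, TB68, TB58 and TB70 were the 6 plates where replicate 2 was higher. On TB60 to TB69 the difference averaged 0.02, against 0.10 to 0.13 on the other groups of 10 plates. It was 0.14 over high tiles and 0.05 over low tiles. The SD over tiles in replicate 2 was 0.962 times that in replicate 1 within the block, against 0.891 over all other tiles. Plates stand for the order of identifiers here, and whether a plate was also a unit of printing was not tested.

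The place of a well within its plate went with small differences. Row means lay between 0.68 in row A and 0.94 in row F, and column means between 0.72 in column 1 and 0.85 in column 6. Row accounted for 0.454% of the variance within the block and column for 0.141%. Both row A and row F kept their place as the lowest and highest row in each replicate, with 0.70 and 0.67 in row A and 1.01 and 0.87 in row F. Each row brings together tiles of 50 plates that lie far apart in the order, so these means average over many runs.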

How the data were processed

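The deposited table holds 1 log ratio per tile and array, made by the authors from the ChIP and input channels. For base, direction, background correction, normalization and genome build, nothing is given in the sources used here. Of 21800 identifiers, 115 have no value. The 2 arrays of each dye-swap pair were identical and were taken as 1 replicate, and each replicate was centred on its median over all tiles. The test of every tile against 0 used R 4.3.3 and limma 3.58.1 (intercept, eBayes, two-sided, Benjamini-Hochberg over 21685 tiles), with 1 residual and 23.1 prior degrees of freedom. The mixture used scikit-learn 1.9.0. Low tiles were those below the mean of the lower component or more likely to belong to it than to the upper one. Wells were ordered by plate, row and column. The fit, the mixture and the correlations were tried on simulated data, and the finding of runs on a short made-up sequence. In the simulated fit few tiles were shifted and neighbouring tiles varied independently, unlike in these data. These trials check the working of the methods and not the calls made here. The number of arrays limits the precision.

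The members, the comparison blocks, the division into high and low tiles and the alternatives were chosen with earlier results of these data known. The rule for what is named was the 2 highest and 2 lowest tiles called with 1 sign in both replicates, the 3 plates with the highest and the 3 with the lowest share of high tiles, the 3 longest runs and the 3 longest stretches, the 2 highest isolated tiles and the 2 tiles with the largest replicate difference. TB49, TB50, TB54, TB99, TC00, the plates where replicate 2 was higher and the peaks of the plate profile were named beside these after their values were seen. No gene is named and no sequence is shown, since no table used here pairs tiles with genes or sequences.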

Additional observations from a re-analysis of the deposited data

How the results depend on the processing

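An adjusted threshold of 0.01, a robust prior with trend and quantile normalization moved neither count of calls by over 1.5 times. Without centring 1466 tiles were above and 2670 below. In the replicate mean, 0 as deposited lies above all low tiles, all tiles between and the lowest high tiles. With a minimum size of 0.5 the count below was 68. These counts cover the block alone, and the matching shares over all tiles are not given here. The share of high tiles was 51.7% with a posterior above 0.5, 46.5% with 0.9 and 22.9% for the upper of 3 components, and 37.7% to 39.4% in single replicates. Over all tiles the upper of 3 components held 15.6%. A posterior above 0.5 makes high every tile that is not low. Low tiles were 48.3% of the block and 63.8% of all tiles. Shares over all tiles with 0.9 and in single replicates are not given here, so those are not set against the array. The mean difference to the other tiles was 0.65 with medians and 0.25 against TB00 to TB49, and 0.45 to 0.53 in single replicates. The correlation of consecutive tiles was 0.670 within rows and 0.646 with plate means taken off, and 0.657 to 0.660 in single replicates. The mean run length was 5.11 tiles with runs 1 tile apart joined and 5.20 with a posterior above 0.5, and 3.29 to 3.42 in single replicates. The number of runs stayed within 1.5 times 540 under all 5 alternatives, from 410 to 552. The calls cannot be tested on 1 replicate alone, which has no residual degree of freedom. No paired analysis was possible because there is 1 group. Signal over background is not given, so tiles of weak signal could not be set apart.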

Other observations

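Strongly low tiles, below -1 in both replicates, were few in TB50 to TB99. There were 15 of them (0.314%), against 27 (0.563%) in TB00 to TB49, 60 (1.31%) in TA52 to TA99, 6 (0.468%) in TC00 to TC13 and 183 (1.08%) over all other tiles. Of the 15, 5 had a high tile as a neighbour. The limit of -1 was chosen after earlier results were seen.

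The 19 wells without a value lay on 4 of the 50 plates, with 6 on TB61, 6 on TB66, 6 on TB81 and 1 on TB70. On the other 46 plates all 96 wells were measured.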
